A study of Mus musculus with 4 samples.

Results

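The RAB small GTPases were described across 4 RNA sequencing libraries of the mouse macrophage line RAW264.7. A gene was a member when its symbol was Rab, a number and at most 1 further letter, which leaves out proteins that only bind or regulate RABs. The table holds 54 such genes among 14435, and 41 of them had enough reads to be tested, among 11035 genes tested in all. The groups are Control, 2 libraries with nonspecific shRNA, and shMettl3, 2 libraries with shRNA against Mettl3. Mettl3 encodes the catalytic subunit of the enzyme that writes N6-methyladenosine on RNA. All 4 cultures had been treated with lipopolysaccharide (LPS) from E. coli for 12 hours, so no unstimulated cells enter the comparison. Per the labels the shRNAs were transfected. Whether replicates were separate cultures is not stated, and the p-values then reflect the spread of these libraries alone, which may be technical.

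RABs are molecular switches that give membranes their identity. Bound to GTP, and held in the membrane by prenyl groups at their carboxyl end, they recruit effectors such as tethers and motors, and on hydrolysis of GTP they can leave the membrane again. Exchange factors (GEFs) switch them on and GTPase-activating proteins (GAPs) switch them off. In macrophages a phagosome first carries Rab5 and then Rab7 on its way to fusion with lysosomes, and other members carry receptors and cytokines to and from the cell surface.

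The libraries held between 16342313 and 17193639 estimated counts. Levels are given as CPM, counts scaled by library size and by edgeR's TMM factor. Mettl3 was at 30.9 and 29.9 CPM in Control and at 11.5 and 11.2 CPM in shMettl3, a log2 fold change of -1.42 (SE 0.10, adjusted p = 1.58e-06). SE is the standard error, and adjusted p-values are those of the edgeR quasi-likelihood fit over all tested genes, by Benjamini-Hochberg, unless another tool is named. A field of the label of shMettl3 replicate 2 names METTL4, while its title names Mettl3. Of 14 macrophage markers 13 were in the table and 12 were tested. Of these 8 fell and 1 rose, where 22.3% of all tested genes fell and 21.4% rose. The summed level of the 13 was between 14657 and 14950 CPM in Control and between 9731 and 9781 CPM in shMettl3. The largest parts were Lyz2, with means of 5868 CPM in Control and 3205 in shMettl3, and Cd14, with 4015 and 2875. Spi1 was not called (-0.06), and the marker that rose was Ptprc (0.57). Markers of lymphocytes summed to at most 1.07 CPM in any library, and those of neutrophils and mast cells to at most 6.13. The fibroblast sum was at most 0.301 CPM in Control and between 1.21 and 4.22 CPM in shMettl3, where Pdgfrb rose. The higher value was that of shMettl3 replicate 1, where the collagen genes Col1a1, Col1a2 and Col3a1 had 17, 15 and 15 counts. In shMettl3 replicate 2 they had 1, 0 and 0 counts, and in Control 0. The dendritic cell sum was between 24.7 and 32.3 CPM in Control and between 6.67 and 7.67 CPM in shMettl3, nearly all of it from the integrin gene Itgax, which macrophages also express and which fell by 2.36 on the log2 scale. The part of these marker differences in the results on RAB genes was not tested. In such bulk samples a change in the mix of cells and a change in RNA per cell cannot be told apart.

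Single RAB genes moved in either direction, by less than 1 on the log2 scale in all tested members but Rab39. Over all 54 genes the summed level was 3700 and 3770 CPM at the lowest and highest of the Control libraries and 3732 and 3764 CPM in the shMettl3 libraries, so the groups overlapped on this scale. They did not overlap on 2 other scales, where the family was higher in shMettl3. The summed level was 2681 and 2571 TPM in Control and 2863 and 2840 TPM in shMettl3, and the share of all counts was 0.365% and 0.357% against 0.387% and 0.387%. The median log2 fold change of all tested genes was above 0 on these scales as well, at 0.15 with TPM and 0.11 with library size alone. The sums of the RAB genes were not tested. Of the 41 tested members 13 rose, 9 fell and 19 were not called at an adjusted p below 0.05, in a comparison where 43.7% of all tested genes were called, 21.4% as rising and 22.3% as falling. The share of RAB genes called was 53.7%. The groups did not overlap for 31 of the 41, or 75.6%, where 73.4% of all tested genes had groups that did not overlap. Whether the RAB shares exceed that background was not tested.

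The sizes of the changes were modest. The median size of the log2 fold change was 0.26 for the RAB genes tested and 0.26 for all genes tested. Of the RAB genes 1 changed by at least 1 on the log2 scale (2.44%), against 9.63% of all genes. A test against a change of 1.5-fold called 0 of the 41 RAB genes, with 3 at an unadjusted p below 0.05 in edgeR, where it called 8.63% of all genes, 3.76% as rising and 4.87% as falling. With library size alone as the scaling it called 2, with a replicate block 1 and without Control replicate 1 it called 1.

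The balance of directions depends on the scaling. The median log2 fold change of the RAB genes was 0.016 and that of all genes 0.014 on the TMM scale used below. The RAB median turned to -0.022 without Control replicate 1, -0.015 without shMettl3 replicate 1 and -0.032 without shMettl3 replicate 2, while that of all genes stayed above 0 in these fits. With all libraries it was 0.11 for both with library size alone, 0.10 for both with the authors' FPKM, and 0.16 and 0.15 with their TPM. Accordingly 59.1% of the RAB calls were rises with TMM, 75.0% with library size, 72.2% with FPKM and 80.0% with TPM. Over all tested genes the same shares were 48.9%, 64.1%, 63.2% and 70.1%. With TPM the log2 fold changes of Rab1a (0.41), Rab2a (0.51), Rab11a (0.39), Rab18 (0.36) and Rab8a (-0.19) differed by over 1.5 times from those on the TMM scale and were still called. 8 members were called in the same direction in every alternative run, including each fit that left out 1 library. They were Rab2b, Rab5a, Rab8b, Rab12, Rab23 and Rab29, which rose, and Rab8a and Rab32, which fell. How many of all tested genes kept a call in every run was not counted, so this number has no background beside it. Without shMettl3 replicate 1 the counts were 8 rising and 2 falling, and without shMettl3 replicate 2 they were 8 and 5.

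**Figure D1:**
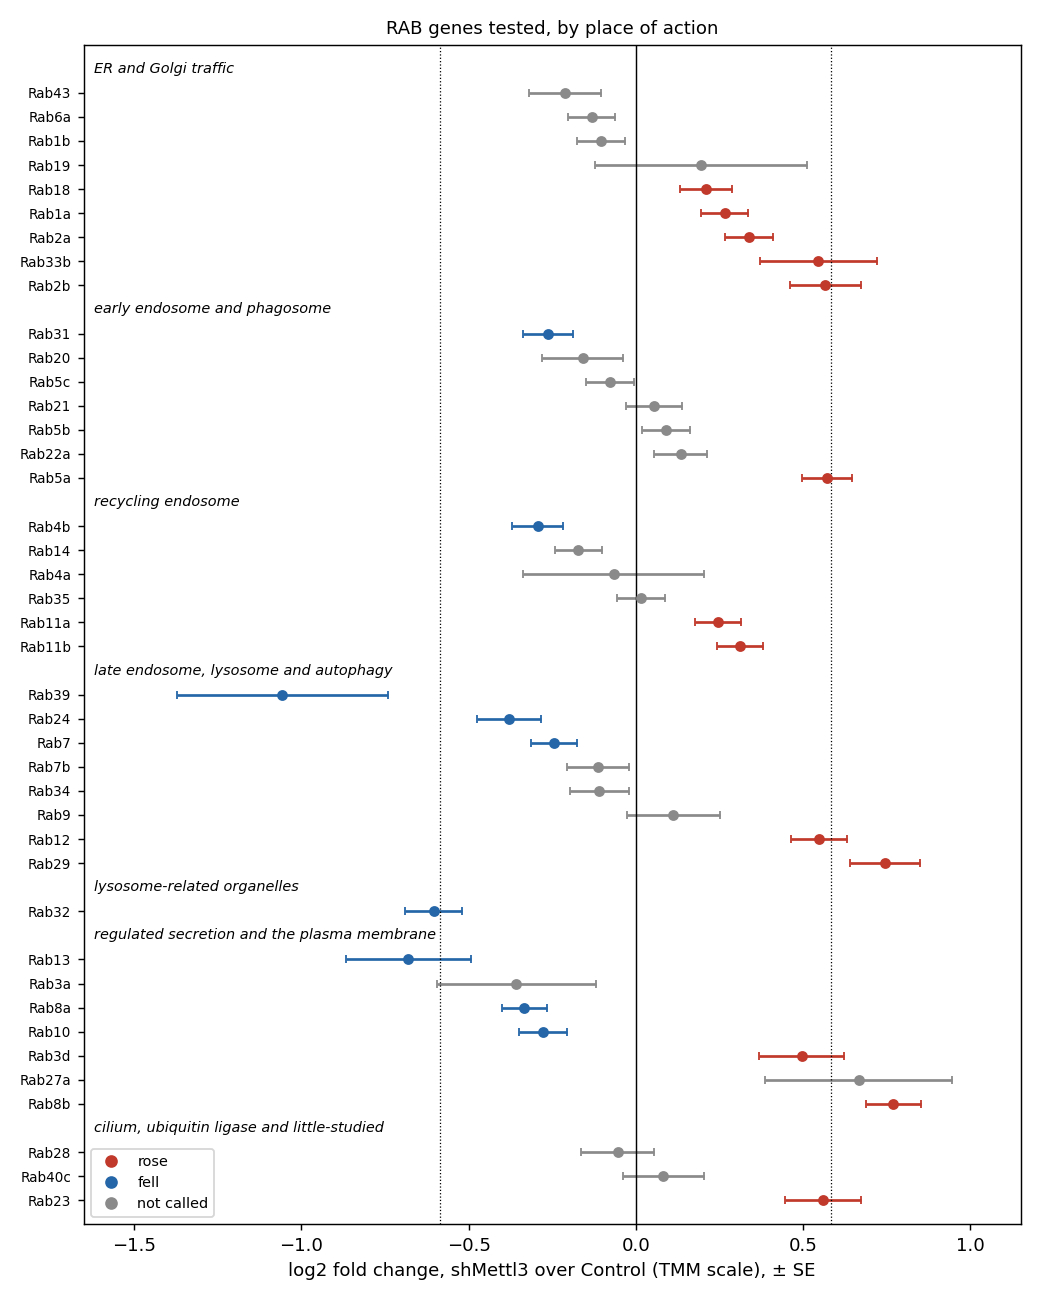
The log2 fold change of each tested RAB gene, shMettl3 over Control on the TMM scale, with bars of 1 SE (n = 2 libraries per group), grouped by where the protein acts. Red and blue points passed an adjusted p below 0.05 and dotted lines mark a change of 1.5-fold. The farthest points are Rab8b (0.77) on the right and Rab39 (-1.06) on the left.

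Rab8b and Rab29 had the largest rises among called members, and Rab32 had the largest fall among called members with over 100 CPM. Rab8b directs vesicles from the Golgi and recycling endosomes to the plasma membrane. It had 181 and 157 CPM in Control and 293 and 283 CPM in shMettl3, a log2 fold change of 0.77 (SE 0.082, edgeR adjusted p = 2.88e-05). Both shMettl3 libraries were above both Control libraries, and the gap was wider than the spread within either group. Rab29, which can recruit the kinase LRRK2 to membranes of the Golgi and stressed lysosomes, had 13.5 and 12.6 CPM against 21.8 and 22.0 CPM (0.74, SE 0.11, edgeR adjusted p = 2.09e-04). Rab32 serves lysosome-related organelles, and in macrophages it acts against intracellular bacteria. It had 183 and 156 CPM in Control and 110 and 112 CPM in shMettl3, and fell by 0.60 on the log2 scale (SE 0.085, edgeR adjusted p = 2.12e-04). The Control libraries differed from each other more than the shMettl3 libraries did, and the groups did not overlap.

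The promoters of these 3 genes are shown because these genes had the largest changes, in opposite directions, among members with over 10 CPM. Each window runs from 250 bases before to 50 bases after the start site, 5′ to 3′ on the strand of the gene, from RefSeq on GRCm38.p6, a later build than the mm9 of the submitters' notes. They lie at chr9:66919656-66919955 on the minus strand for Rab8b, chr1:131867027-131867326 on the plus strand for Rab29 and chr10:10558158-10558457 on the minus strand for Rab32. Capitals mark matches, on either strand, to 6 searched motifs.
Rab8b: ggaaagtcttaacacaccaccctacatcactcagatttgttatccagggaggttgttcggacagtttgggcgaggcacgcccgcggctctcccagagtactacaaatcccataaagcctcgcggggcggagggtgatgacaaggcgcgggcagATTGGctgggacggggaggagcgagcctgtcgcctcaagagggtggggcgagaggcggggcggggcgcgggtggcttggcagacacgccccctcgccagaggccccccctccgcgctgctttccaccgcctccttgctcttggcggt
Rab29: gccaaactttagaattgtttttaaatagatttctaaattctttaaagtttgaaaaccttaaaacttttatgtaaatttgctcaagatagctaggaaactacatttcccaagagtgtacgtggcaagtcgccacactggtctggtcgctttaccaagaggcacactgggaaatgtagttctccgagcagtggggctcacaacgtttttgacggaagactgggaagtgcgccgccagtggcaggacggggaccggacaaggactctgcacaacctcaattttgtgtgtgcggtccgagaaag
Rab32: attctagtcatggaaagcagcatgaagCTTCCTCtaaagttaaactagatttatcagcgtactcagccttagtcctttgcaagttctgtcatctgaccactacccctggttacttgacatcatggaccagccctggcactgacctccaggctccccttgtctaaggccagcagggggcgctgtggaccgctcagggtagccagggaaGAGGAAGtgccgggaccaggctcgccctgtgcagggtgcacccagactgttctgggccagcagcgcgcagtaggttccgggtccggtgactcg
The searched motifs were the E-box CACGTG, the AP-1 site TGANTCA, an NF-kB site of GGGA, 2 free bases and TTCC, a PU.1 site GAGGAAG, the CCAAT box and the cAMP response element TGACGTCA. None of them overlapped another in these 3 windows. The Rab8b window held 1 CCAAT box, on the reverse strand at position -97, the Rab32 window held 2 PU.1 letters, at -223 and -43, and the Rab29 window held no match. The windows of Rab8b, Rab32 and Rab29 were 65.3%, 57.3% and 45.3% G and C.

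Across the family 47 of the 54 genes had a promoter in the RefSeq table. Shares over all 27025 genes of that table count a gene once when any of its promoters holds the motif. The NF-kB letters were in 0 of the 47, and in 1.63% of all genes. The CCAAT box was in 25 of the 47 RAB genes (53.2%) and in 41.1% of all genes, or 37.4% of all 32851 promoters. Among genes that fell 7 of 9 had it (Rab4b, Rab7, Rab8a, Rab10, Rab13, Rab31 and Rab39), and 5 of the 11 with a promoter that rose had it (Rab2b, Rab5a, Rab8b, Rab11a and Rab11b). So did 10 of 17 genes not called and 3 of 10 not tested for expression. The differences between these sets were not tested. The E-box was in 6 RAB genes (12.8%) and 8.09% of all genes, and the PU.1 letters were in 8 of the 47 and 15.4%. The AP-1 letters were in 3 RAB genes (6.38%) and 8.97% of all genes, and the cAMP element was in 2 (4.26%) and 2.03%. These matches are letters in a window and describe no binding.

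The sequence GGACT, a frequent form of the m6A consensus, was counted in the longest protein-coding transcript of each gene in GENCODE M21. The 13 RAB genes that rose had a median of 0.859 copies per kilobase, the 9 that fell 0.856 and the 19 not called 0.718. Over all tested genes the median was 0.988 for those that rose, 1.10 for those that fell and 1.04 for those not called. The median transcript length was 2820 bases over the 41 tested members and 3097 bases over all tested genes. These medians are a description, and methylation itself was not measured in these libraries.

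**Figure D2:**
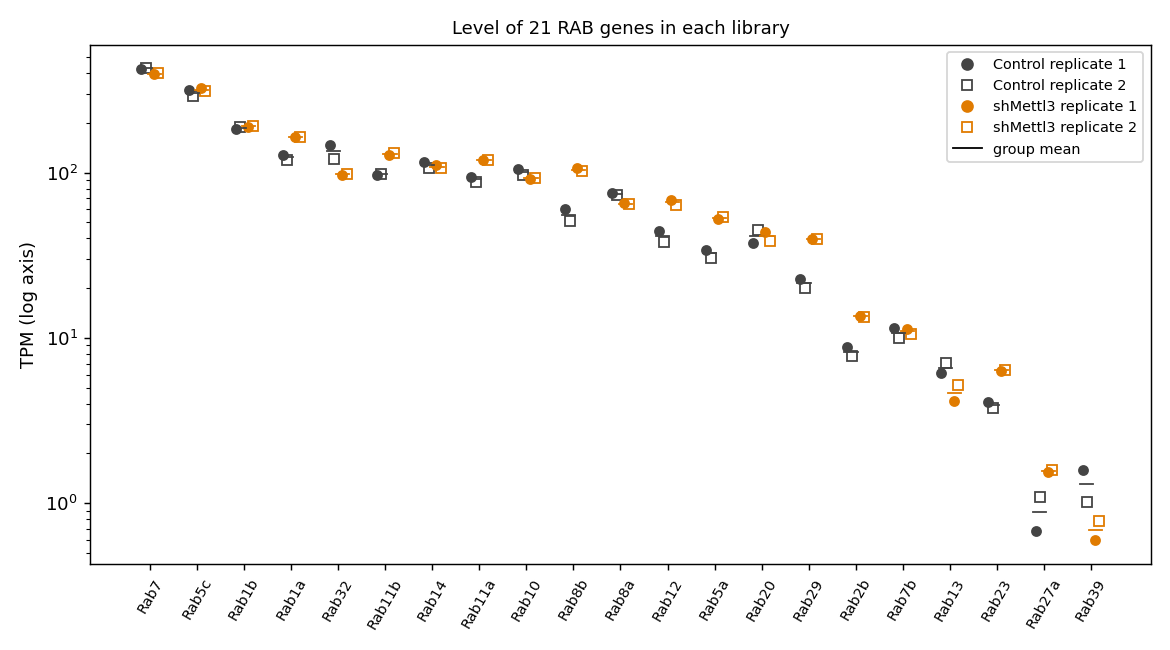
Level in TPM (log axis) of 21 RAB genes in each of the 4 libraries, ordered by level, with group means as short lines. Rab7 is the highest at a mean of 412 TPM, the orange shMettl3 points of Rab8b, Rab12, Rab5a and Rab29 lie above the grey Control points, and those of Rab32 lie below.

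In TPM, the deposited measure of level per transcript length, Rab7 was the most abundant member with a mean of 412 over the 4 libraries. It was followed by Rab5c at 311 TPM, Rab1b at 189, Rab1a at 144 and Rab32 at 116. The order of Rab1a and Rab32 turned with the group, with means of 124 and 135 TPM in Control and 164 and 97.5 TPM in shMettl3. Rab11b (114 TPM), Rab14 (110) and Rab11a (105) came next in the mean over the 4 libraries. Their order with Rab32 also turned with the group. In Control the means were 135 TPM for Rab32, 111 for Rab14, 97.5 for Rab11b and 91.3 for Rab11a. In shMettl3 they were 130 TPM for Rab11b, 119 for Rab11a, 109 for Rab14 and 97.5 for Rab32. Within each group the libraries of Rab32, Rab14, Rab11b and Rab11a did not overlap. Those of Rab1a and Rab32 overlapped in Control, with 128 and 119.5 TPM against 147.7 and 121.6 TPM. The order was not tested. At the other end 13 members had at most 12 counts in any library and were not tested. These are Rab3b, Rab3c, Rab6b, Rab15, Rab17, Rab25, Rab30, Rab33a, Rab37, Rab39b, Rab40b, Rab42 and Rab44. No difference in them was detectable at this depth.

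Among the 9 tested RABs of the endoplasmic reticulum (ER) and Golgi 5 rose and 0 fell. No member of this group was called as falling in any alternative run. Of all tested genes 21.4% rose and 22.3% fell. The differences of this group, and of the groups of RAB genes below, from these shares were not tested. Rab1a, which drives vesicles from the ER to the Golgi, had 209 and 202 CPM in Control and 247 and 247 CPM in shMettl3 (0.27, SE 0.070). Its close relative Rab1b had 200 and 215 CPM against 192 and 195 CPM (-0.11, SE 0.072) and was not called. On the TPM scale the sign of Rab1b turned to 0.035, still not called. Rab2a and Rab2b act between Golgi and ER and in delivery to lysosomes. Rab2a had 101 and 109 CPM against 135 and 129 CPM (0.34, SE 0.072), and Rab2b 15.0 and 13.6 CPM against 21.2 and 21.0 CPM (0.57, SE 0.11). In each of these 3 rises both shMettl3 libraries were above both Control libraries. Exons of Rab2b share 2469 bases with Gm43766 and 195 bases with Tox4, both on the opposite strand, and reads there cannot be assigned by strand. Tox4 also rose, and Gm43766 was not among the genes with deposited values.

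The other risers of the ER and Golgi group were less firm. Rab33b, a Golgi RAB that binds the autophagy protein ATG16L1, had 17.4 and 17.2 CPM in Control and 30.0 and 20.6 CPM in shMettl3 (0.55, SE 0.18, edgeR adjusted p = 0.0427). shMettl3 replicate 2 was nearer to the Control libraries than to shMettl3 replicate 1. Its log2 fold change was 0.25 without shMettl3 replicate 1 (edgeR adjusted p = 0.225), and its call was lost with no filter on low counts (0.0606), without Control replicate 1 (0.264) and without Control replicate 2 (0.290). Rab18, which sits on the ER and on lipid droplets, went from 87.4 and 77.2 CPM to 96.0 and 94.5 CPM (0.21, SE 0.078), and was at 0.12 without Control replicate 2. Its edgeR adjusted p of 0.0465 rose to 0.181 in that fit, and to 0.222 and 0.172 without shMettl3 replicate 1 or 2, and was 0.149 in DESeq2. Rab1a lost its call without either shMettl3 library (edgeR adjusted p = 0.114 and 0.117), and Rab2a without shMettl3 replicate 1 (0.0518). Rab6a, which carries cargo back to the Golgi (-0.13), Rab43 (-0.21) and Rab19 (0.19, on 17 to 24 counts) were not called. Exons of Rab6a and Rab43 overlap other annotated genes as well. So do those of the called members Rab5a (221 bases), Rab7 (204), Rab10 (143), Rab11a (107), Rab11b (329), Rab18 (305) and Rab33b (661). Rab3a, Rab20, Rab22a, Rab27a and Rab40c, which were not called, also have such overlaps. The part of reads from these stretches in the levels was not tested.

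Of the 7 tested RABs of early endosomes and phagosomes 1 rose, 1 fell and 5 were not called. Rab5a, which drives fusion of early endosomes and young phagosomes, had 49.4 and 45.6 CPM in Control and 69.5 and 71.6 CPM in shMettl3 (0.57, SE 0.076, edgeR adjusted p = 1.35e-04). The groups were well apart. The other Rab5 genes were not called. Rab5c, the most abundant of the 3, had 366 and 347 CPM against 345 and 330 CPM (-0.08, SE 0.072), with the sign turned under library size (0.017), FPKM (0.0069) and TPM (0.062). Rab5b was at 0.090 (SE 0.071) on the log2 scale and was called with TPM, at 0.24 (limma adjusted p = 0.0428).

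Rab31, which moves receptors between the Golgi network and endosomes, had 181 and 201 CPM against 157 and 162 CPM. It fell by 0.26 on the log2 scale (SE 0.076, edgeR adjusted p = 0.0163). This call was lost with library size (adjusted p = 0.0939), with FPKM (-0.17, limma adjusted p = 0.114), with TPM (-0.12, 0.210) and without shMettl3 replicate 1 (0.173) or 2 (0.0977). Rab20, an interferon-inducible RAB of maturing phagosomes, had 22.9 and 27.8 CPM in Control and 24.5 and 21.0 CPM in shMettl3 (-0.16, SE 0.12), so its groups overlapped. Without Control replicate 1 its log2 fold change was -0.30 and was called (edgeR adjusted p = 0.0386). Rab21, a RAB of integrin uptake (0.05), and Rab22a (0.13) were not called, although Rab22a was called with library size (0.23, edgeR adjusted p = 0.0330).

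The 6 tested recycling RABs had 2 rises and 1 fall. Rab11a and Rab11b, which return cargo from the recycling endosome to the cell surface, both rose. Rab11a had 134 and 130 CPM in Control and 156 and 156 CPM in shMettl3 (0.25, SE 0.068), and Rab11b 122 and 126 CPM against 153 and 155 CPM (0.31, SE 0.068). Rab4b, of the fast recycling route, had 45.6 and 46.5 CPM against 37.3 and 37.8 CPM, and fell by 0.29 (SE 0.077). Its exons share 1280 bases with Gm21983 on the same strand. Rab14, found on early endosomes, the Golgi network and phagosomes, had 221 and 210 CPM against 195 and 187 CPM (-0.17, SE 0.071, edgeR adjusted p = 0.0712). It was called without Control replicate 2 (-0.21, edgeR adjusted p = 0.0229). Rab11a lost its call without shMettl3 replicate 1 (0.127) or 2 (0.124), Rab11b without shMettl3 replicate 2 (0.0576), and Rab4b without shMettl3 replicate 1 (0.0927) or 2 (0.0693) and with library size (0.0559). Rab4b was also not called with TPM (-0.16, limma adjusted p = 0.0834) or in DESeq2 (adjusted p = 0.0552). Rab35 (0.02) and Rab4a (-0.07, on 28 to 33 counts) were not called.

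The late endosome, lysosome and autophagy group moved in either direction, with 2 rises and 3 falls among 8 tested members. Besides Rab29, Rab12 rose, a RAB that sends receptors from recycling endosomes to lysosomes. It had 51.5 and 46.5 CPM in Control and 74.9 and 68.3 CPM in shMettl3 (0.55, SE 0.083, edgeR adjusted p = 3.31e-04). Rab12 and Rab29 are both linked to LRRK2, Rab12 as a substrate of that kinase. Rab7, the RAB of late endosomes and of their fusion with lysosomes, had 558 and 579 CPM against 480 and 480 CPM and fell by 0.24 (SE 0.068, edgeR adjusted p = 0.0135). On the log2 scale this fall was 0.15 with library size and 0.10 with TPM, where it was not called (adjusted p = 0.0963 and 0.183), it was 0.16 with FPKM (0.0824), and it was not called without shMettl3 replicate 1 (0.137) or 2 (0.136).

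Rab24, which has been placed in autophagy, had 44.8 and 51.2 CPM in Control and 34.4 and 39.4 CPM in shMettl3, and fell by 0.38 (SE 0.10). Its exons share 1258 bases with Prelid1 on the opposite strand in GENCODE M21, and no step that marks strand is described, so reads of these genes cannot be told apart there. Prelid1 was not called. Without shMettl3 replicate 1 the log2 fold change of Rab24 was -0.29 (edgeR adjusted p = 0.103), and it was not called with FPKM (-0.25) or TPM (-0.20). Rab39 had the largest change of the family, from 2.95 and 1.93 CPM to 1.01 and 1.32 CPM, but rests on 17 to 49 counts (-1.06, SE 0.32, edgeR adjusted p = 0.0188). Its call was lost without Control replicate 1 (-0.73, edgeR adjusted p = 0.101), without shMettl3 replicate 1 (-0.88, 0.125) and in DESeq2 (adjusted p = 0.105).

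Rab7b, which acts between late endosomes and the Golgi network and is known to lower TLR4 in macrophages, had 32.6 and 29.2 CPM in Control and 29.6 and 27.6 CPM in shMettl3 (-0.11, SE 0.094). It was not called, and its sign turned with TPM (0.034). Rab9, which returns sorting receptors from late endosomes (0.11, SE 0.14), and Rab34, a RAB of phagosomes and lysosome position (-0.11, SE 0.089), were not called and had overlapping groups. Rab7b and Rab29 lie on the same chromosome, and the ratio of Rab29 to Rab7b in TPM was 1.97 and 2.01 in Control and 3.48 and 3.73 in shMettl3.

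Among 7 tested RABs of regulated secretion and the plasma membrane 2 rose and 3 fell. Rab8b rose, as above, while Rab8a fell by 0.33 on the log2 scale (SE 0.069), from 91.7 and 91.3 CPM to 73.5 and 71.8 CPM. Rab10, which carries TLR4 to the macrophage surface, had 232 and 218 CPM in Control and 185 and 187 CPM in shMettl3 and fell by 0.28 (SE 0.071, edgeR adjusted p = 0.00878). Its call was lost with library size (edgeR adjusted p = 0.0590), with FPKM (-0.19, limma 0.0631) and TPM (-0.13, 0.170), and without shMettl3 replicate 1 (0.121) or 2 (0.101). Rab13, best known from tight junctions, had 5.48 and 6.33 CPM against 3.39 and 3.97 CPM and fell by 0.68 (SE 0.19), with the call lost without shMettl3 replicate 1 (0.106) and in DESeq2.

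The remaining secretory members had low counts. Rab3d, a RAB of secretory granules, rose from 10.3 and 9.76 CPM to 13.0 and 15.2 CPM (0.50, SE 0.13), a call lost without shMettl3 replicate 2 (edgeR adjusted p = 0.118) and in DESeq2 (0.0575). Rab27a, which docks secretory lysosomes and exosome-bearing bodies at the plasma membrane, had 22 and 36 counts in Control and 46 and 49 in shMettl3 (0.67, SE 0.28). It was not called (edgeR adjusted p = 0.0742), though its groups did not overlap. Without Control replicate 2 its log2 fold change was 1.06 and was called (edgeR adjusted p = 0.0157), as it was with library size (0.0404) and TPM (0.0378). Rab3a, on 35 to 51 counts, was not called (-0.36, SE 0.24). In the last group Rab23, a ciliary regulator of Hedgehog signalling, rose from 11.1 and 10.6 CPM to 15.8 and 16.2 CPM (0.56, SE 0.11), and Rab28 (-0.05) and Rab40c (0.08) were not called.

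**Figure D3:**
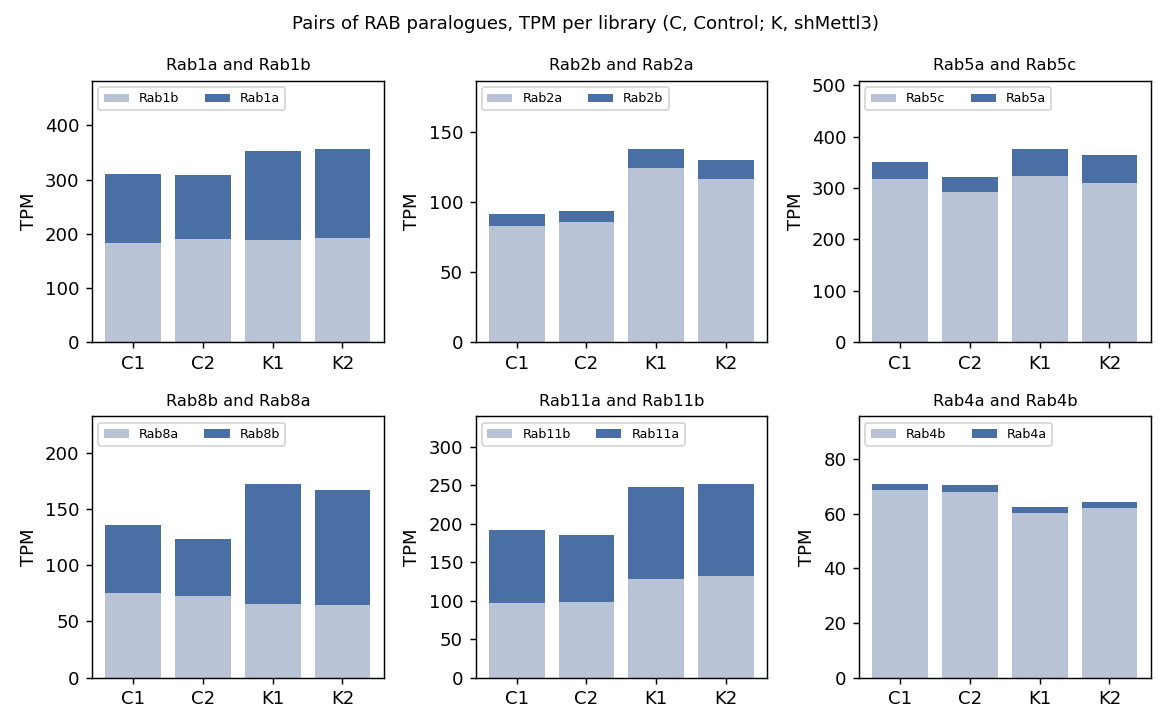
TPM of 6 pairs of related RAB genes in each library, stacked (C, Control; K, shMettl3; the number is the replicate). The Rab8 bars change from mostly Rab8a to mostly Rab8b, the Rab2 and Rab11 bars grow with their proportions nearly kept, and the Rab4 bars are nearly all Rab4b.

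Related genes within a subfamily moved apart in some pairs and together in others. The ratio of Rab8b to Rab8a, both in TPM, was 0.796 and 0.694 in Control and 1.62 and 1.59 in shMettl3. The more abundant Rab8 gene was therefore Rab8a in Control and Rab8b in shMettl3. The ratio of Rab5a to Rab5c went from 0.108 and 0.105 to 0.161 and 0.174, and that of Rab1a to Rab1b from 0.701 and 0.629 to 0.869 and 0.853. None of these ratios overlapped between groups, and neither did the ratio of Rab2b to Rab2a given below. With 2 libraries per group, 73.4% of all tested genes had levels that did not overlap. The ratio of Rab11a to Rab11b was 0.970 and 0.904 against 0.929 and 0.905, and that of Rab2b to Rab2a 0.106 and 0.0897 against 0.109 and 0.115. A ratio within a library does not depend on the scaling between libraries. These pairs were chosen with the values known, and the differences between paralogues were not tested.

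The machinery around the RABs was read from lists of genes chosen by function. Over all tested genes 43.7% were called. Of those calls 48.9% were rises with TMM, 64.1% with library size, 63.2% with FPKM and 70.1% with TPM. The difference of any list from these shares was not tested. Of 9 tested genes of RAB prenylation and recycling 3 rose and 3 fell (median log2 fold change -0.18). On the TPM scale 4 rose and 2 fell (median -0.033). Chm and Chml, the escort proteins that present new RABs for prenylation, were among the rises. Chm had 19.6 and 15.8 CPM in Control and 25.5 and 26.6 CPM in shMettl3 (0.56, SE 0.11) and Chml was at 0.38 (SE 0.12). Chml lost its call without Control replicate 2 (edgeR adjusted p = 0.0623), without shMettl3 replicate 1 (0.0615) or 2 (0.145) and in DESeq2. Rabggta, a subunit of the prenyl transferase, fell by 0.45. Without shMettl3 replicate 1 there were 1 rise and 2 falls.

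Of 52 tested exchange factors 10 rose and 10 fell, or 38.5% called against 43.7% of all tested genes (median 0.01). With library size, FPKM and TPM the counts were 13 and 6, 11 and 5, and 14 and 5. Rab3il1, an exchange factor for Rab3a and Rab8 proteins, had the largest change, from 283 and 321 CPM to 79.7 and 80.7 CPM. It fell by 1.91 on the log2 scale (SE 0.082, edgeR adjusted p = 5.84e-08). Dennd1b, of the DENN family of exchange factors, rose from 29.9 and 23.7 CPM to 53.7 and 50.3 CPM (0.95, SE 0.11). Als2cl and Dennd2d fell by 0.88 and 0.72. The groups were apart in each of these genes.

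Of 38 tested GAPs 11 rose and 11 fell, or 57.9% called against 43.7% of all tested genes. The median was -0.06, turning to 0.040 with library size and 0.097 with TPM. The counts were 15 and 8 for library size, 13 and 6 for FPKM and 15 and 6 for TPM. Tbc1d9 fell by 1.82 on the log2 scale (SE 0.13), from 19.5 and 19.0 CPM to 5.24 and 5.63 CPM. Tbc1d2, a GAP for Rab7, fell by 1.07 (SE 0.18). Rabgap1 and Tbc1d8b rose (0.68 and 0.67), and Tbc1d8b lost its call and had a log2 fold change of 0.44 without shMettl3 replicate 2 (edgeR adjusted p = 0.0702). The number of GAPs called was 13 without shMettl3 replicate 2.

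Of 56 tested effectors and tethers 9 rose and 19 fell, or 50.0% called against 43.7% of all tested genes (median -0.14). This balance depends on the scaling, with 13 and 12 for library size, 10 and 10 for FPKM, and 15 and 9 for TPM, where the median turned to 0.054. Rilpl1, a partner of phosphorylated Rab8 and Rab10, fell by 1.61 on the log2 scale (SE 0.13), from 19.1 and 22.2 CPM to 6.25 and 7.24 CPM. Rabep1, the Rab5 effector rabaptin, rose from 44.8 and 48.5 CPM to 74.0 and 73.5 CPM (0.66, SE 0.075). Micall2, an effector of Rab13 and Rab8, fell by 0.66. Ehbp1 was near the level needed to be named, which it met only in shMettl3, with 4.09 and 3.37 CPM in Control and 6.31 and 5.40 CPM in shMettl3. It was called as rising (0.65), a call lost without Control replicate 2 (edgeR adjusted p = 0.0715), without shMettl3 replicate 1 (0.147) and in DESeq2. Without shMettl3 replicate 1 there were 5 rises and 7 falls in the list.

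For comparison, in the ARF and ARL family, the other large set of traffic GTPases, 8 of 23 tested genes rose and 3 fell. This is 47.8% called (median 0.15), against 43.7% of all tested genes. With library size, FPKM and TPM 13 rose and 3 fell. A change of 1.5-fold was passed by 4 of the 23, against 0 of the 41 RAB genes and 8.63% of all tested genes. These differences were not tested. Arl5c fell by 1.49 and Arl10 by 1.30, while Arl6, which works with the BBSome in cilia (1.02), and Arl4a (0.60) rose.

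**Figure D4:**
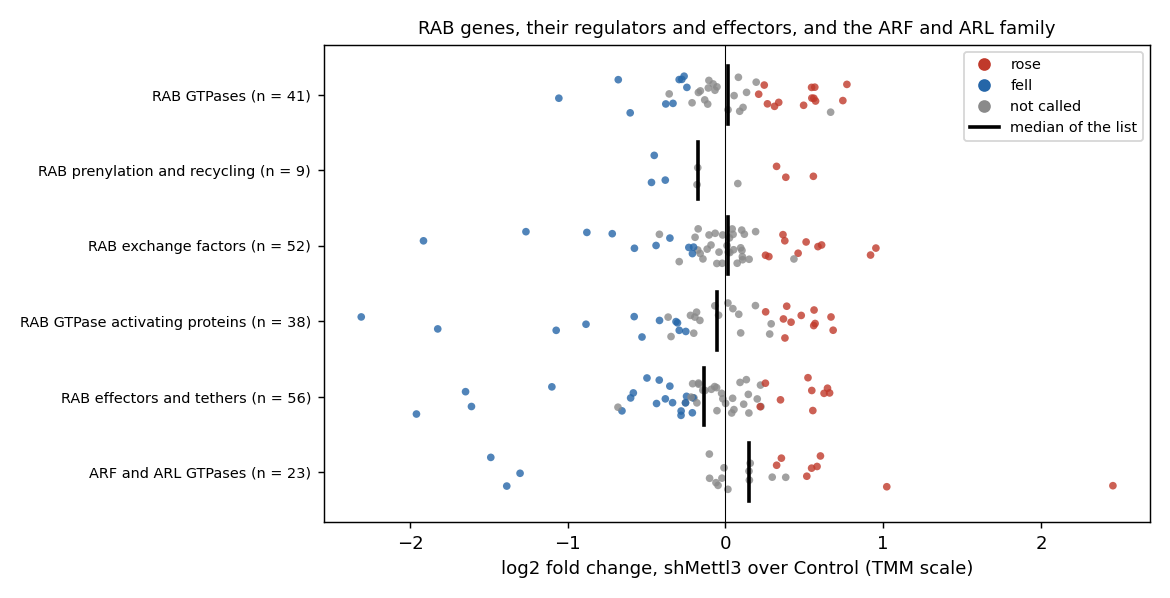
The log2 fold change of every tested gene, shMettl3 over Control on the TMM scale, in the RAB family, the 4 lists of RAB regulators and effectors, and the ARF and ARL family. Each point is a gene, its height within a row is arbitrary, black bars are list medians, and n is the number tested. RAB genes lie within 0.77 of 0 except Rab39, while each list of GEFs, GAPs and effectors has members below -1.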

How the data were processed

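Polyadenylated RNA of 4 RAW264.7 libraries was copied by template switching, amplified and read as single-end 50 base reads on a BGISEQ-500, per the labels' protocols. The tools named are RSEM 1.2.12, HISAT2 2.0.4 and Bowtie2 2.2.5 with mm9, per the submitters' processing notes, which give no roles. Annotation and strandedness were not stated in what was used here. The authors deposited estimated counts, FPKM and TPM per gene, per the file headers. Estimated counts are unnormalized, and those of 4 RAB genes (Rab1a, Rab5a, Rab10 and Rab33b) were not all whole, so reads may be shared with related genes. The authors' FPKM scale reads by gene length and library size, and their TPM scale them by transcript length to a common total.

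Groups came from the titles. Counts were rounded and fitted over the whole table with edgeR 4.0.16 (R 4.3.3, quasi-likelihood, robust, TMM, filterByExpr with minimum count 10 and total 15), group only, n = 2 per group. The test kept 11035 genes and adjusted p-values by Benjamini-Hochberg. The SE was taken as |log2 fold change| divided by the root of F. Reads carry no molecular identifiers. The same fit was tested against a 1.5-fold change. Alternatives used DESeq2 1.42.0, limma 3.58.1 (voom, and log2 values with a pseudocount of 0.1 or 1), other filters and scalings, a replicate block, and each library left out. Lists were matched by symbol, or through 14335 identifiers found in RefSeq (GRCm38.p6). The scripts were tested on simulated data. The members and lists were chosen with earlier results of these data known. Values in each library are given for called RAB genes that changed by at least 0.58 on the log2 scale, the 5 most abundant and a fixed set with known macrophage roles. In each list up to 4 called genes with the largest changes whose higher group averaged 5 CPM or more are named, except 1 that is not reported here. Values of other members are given because the text describes the whole family, and were chosen with values seen. The table has 0 columns of other samples.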

Additional observations from a re-analysis of the deposited data

How the results depend on the processing

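Over 568 refits of single RAB genes, 475 kept their direction and their side of the threshold, 51 lost a call, 11 gained one and 31 changed sign, and no call turned into a call in the other direction. All sign changes were in genes that were not called. With library size alone they were Rab28 (0.041), Rab5c (0.017) and Rab4a (0.028). With FPKM they were Rab28 (0.046), Rab5c (0.0069) and Rab4a (0.021). With TPM and a pseudocount of 0.1 or 1 they were Rab6a (0.012 and 0.012), Rab1b (0.035 and 0.035), Rab28 (0.10 and 0.099), Rab5c (0.062 and 0.062), Rab7b (0.034 and 0.031), Rab4a (0.076 and 0.054) and Rab34 (0.021 and 0.021). Without 1 library, the log2 fold change ranged from -0.053 to 0.20 for Rab40c, from -0.032 to 0.063 for Rab35, from -0.20 to 0.092 for Rab28, from -0.062 to 0.27 for Rab9, from -0.025 to 0.13 for Rab21 and from -0.19 to 0.055 for Rab4a. The number of RAB genes that fell, 9, was 5 with library size, 5 with FPKM and 4 with TPM at either pseudocount. The number that rose was between 8 and 12, and the number that fell between 2 and 10, with 1 library left out. Past a 1.5-fold change the count of 0 became 2 with library size, and lay between 0 and 1 with 1 library left out. The count over all genes, 4826, was between 3070 and 5306 without 1 library. In DESeq2 16 effectors and tethers, 13 exchange factors and 14 GAPs were called, against 28, 20 and 22. Without 1 library the effectors called numbered between 12 and 29, the GAPs between 13 and 22 and the prenylation genes between 3 and 6. Fits without a library take the spread of the lone library from the other group. The causes of these shifts were not tested.

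Whether libraries with the same replicate number share a batch is not stated. The deviations of same-numbered libraries correlated at 0.146 across genes, which are not replicates. With the replicate block 13 RAB genes rose and 9 fell, the same genes as without it, 1 passed the 1.5-fold test and 2548 and 2568 of all genes rose and fell. Counting rows with a RAB name as an alias added Rgl2, Rnase4 and Lamtor2, which are not RAB genes, and gave 14 rises and 11 falls. At this depth the 13 untested members could show no difference.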
